A study of Canis lupus familiaris with 8 samples.

Results

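The dog miRNAs cfa-miR-34a, cfa-miR-34c, cfa-miR-192, cfa-miR-194 and cfa-miR-215 (written below without the species prefix) were followed in vesicles (exosomes) shed by dog mammary cells. They were chosen by name as miRNAs described to respond to the tumour suppressor p53, and all 5 were found among the 452 mature miRNAs of the deposited table, 1 locus each. Small RNA was sequenced from cell-free conditioned medium of 5 cell lines from mammary carcinomas (CMT, canine mammary tumour: CMT-12, CMT-27, CMT-28, CMT-47 and CMT-119) and of 3 normal canine mammary epithelial cell samples (CMEC1, CMEC2 and CMEC3). Each tumour line gave 1 library, and the labels call the CMEC samples biological replicates without saying whether they came from separate dogs. All cells were grown in DMEM with a synthetic, serum-free supplement, penicillin and streptomycin. Medium from the first 24 hours of growth was not used, and that of the next 48 hours was taken on day 3. Neither the p53 status of the cells nor their intracellular RNA was analysed here.

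p53 is a transcription factor that is switched on by DNA damage and other stress. In human and mouse cells it raises transcription of the miR-34a gene and of the gene shared by miR-34b and miR-34c, and these miRNAs lower the level of proteins that drive the cell cycle and block cell death. miR-34a is made in many tissues, whereas miR-34b and miR-34c are best known from ciliated airway cells and testis. miR-192, miR-194 and miR-215 are abundant in liver, gut and kidney, and in human cells p53 raises them too. miR-192 and miR-215 have the same seed, the stretch near the 5′ end that finds targets, and miR-194 has another seed. miR-34a and miR-34c also share a seed.

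By the coordinates of the table (canFam3), miR-34c lies on chromosome 5 from 21558138 to 21558160 on the minus strand, and its cluster partner miR-34b begins 573 bases away, from 21558734 to 21558755. miR-34a lies on the same chromosome and strand from 62485876 to 62485897, which is 40.9 Mb from miR-34c. miR-215 (14895154 to 14895175) and miR-194 (14895437 to 14895458) are neighbours on the minus strand of chromosome 38, with 261 bases between them. miR-192 lies on the plus strand of chromosome 18 from 52281129 to 52281149. In the RefSeq annotation of another dog assembly (UU_Cfam_GSD_1.0), miR-34b and miR-34c fall within the bounds of the protein-coding gene HOATZ, miR-194 and miR-215 within those of IARS2, and miR-192 within the long non-coding RNA LOC102155550. miR-34a overlaps no other gene there. Exons and introns of these hosts were not analysed here. In human, a further copy of miR-194 lies beside miR-192. The table lists 1 locus for miR-194, the one beside miR-215, so reads from any further copy cannot be told apart from it.

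The deposited values are normalised, linear and never below 1. A value of 1 is the floor of the table. Above it, the values of a library are whole multiples of the worth of 1 read, so reads could be read off the values. The reads of all listed miRNAs numbered 81138 in CMT-12 and 85906 in CMEC2, and 346585 to 1405893 in the other libraries. The worth of 1 read was 2.83 in CMEC2, 2.32 in CMT-12 and 0.386 to 1.39 elsewhere. At the floor no read can be hidden in CMT-12 or a CMEC sample, but 1 read can in CMT-27, CMT-47 and CMT-119, and 2 in CMT-28. Shares below are parts of a library's summed value, in ppm (1 ppm is 0.0001%), and do not depend on the deposited scaling. In vesicle RNA, a higher share of one miRNA and a lower amount of the others cannot be told apart. Intervals are exact 95% Clopper-Pearson intervals and cover counting error only. For a share at the floor, the upper limit is the exact bound on the reads that can hide there. Where none can hide, it is the share of 3 reads, which is below the exact bound for a count of 0.

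miR-192 was the only one of the 5 that was well above the floor in each library. It held 76.7% to 97.8% of the summed value of the 5 miRNAs, at rank 43 (CMT-12) to 77 (CMT-28) among the miRNAs of a library. The other members each had at most 34 reads in any library. Together the 5 miRNAs made up 0.0153% to 0.222% of a library, where miR-21, the leading miRNA, made up 24.9% to 63.1%. The plot of deposited values by library shows this gap, with miR-192 between 38.2 and 408 and the rest at 23.6 or less.

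**Figure D1:**
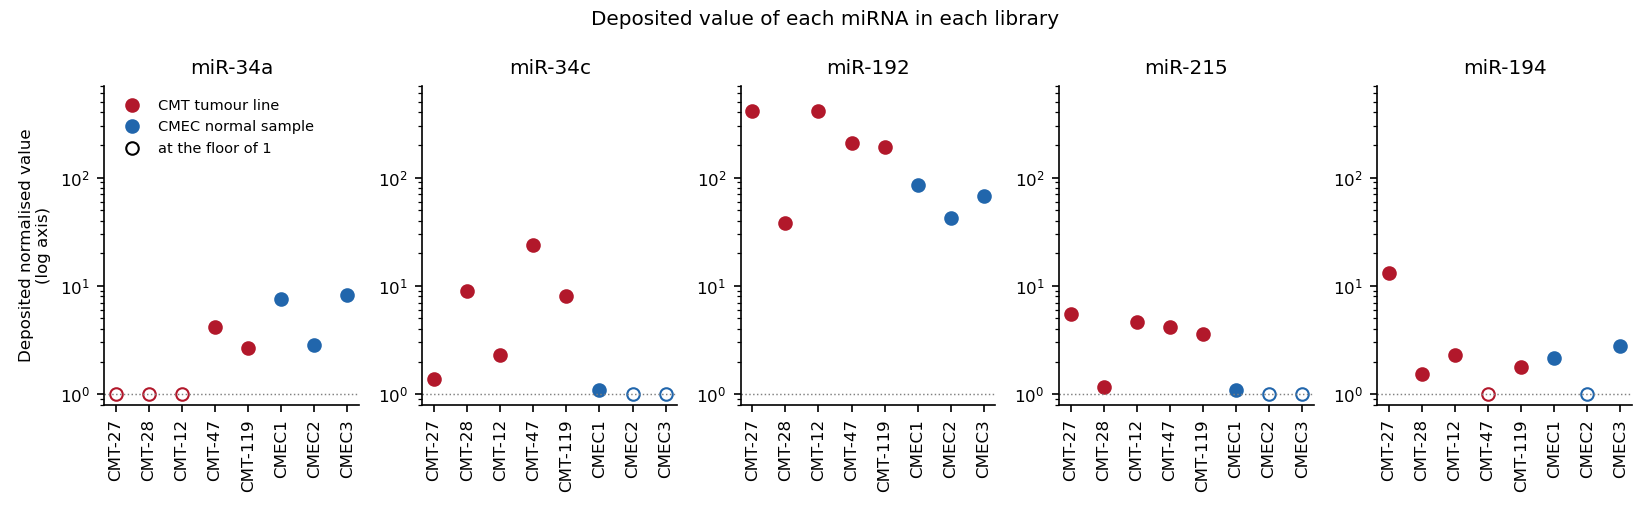
Deposited normalised value (log axis) of the 5 miRNAs in each of the 8 libraries, with tumour lines in red and normal samples in blue. Open circles are values at the floor of 1. miR-34a is at the floor in 3 tumour lines and above it in the 3 normal samples, and miR-34c and miR-215 are above it in the 5 tumour lines and at 1.09 or the floor in the normal samples.

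miR-34a, the member with the broadest tissue range in the miR-34 family, was lower on average in tumour vesicles. Its deposited value was at the floor in CMT-12, CMT-27 and CMT-28, 2.69 in CMT-119 and 4.16 in CMT-47. In the normal samples it was 7.61 in CMEC1, 2.83 in CMEC2 and 8.32 in CMEC3. The groups overlapped, because CMT-47 lay above CMEC2. These values stand for 6 reads in CMT-47 and 3 in CMT-119, and for 7, 1 and 6 reads in CMEC1, CMEC2 and CMEC3. On the log2(value + 1) scale the difference (CMT minus CMEC) was -1.31 ± 0.70 (SE, 5 against 3 libraries), which did not pass the threshold (limma adjusted p = 0.512 over 193 tested miRNAs).

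As a share of the library, with values at the floor taken as 0, miR-34a did not overlap between the groups. It was 5.74 ppm in CMT-47 (interval 2.11 to 12.5) and 5.55 in CMT-119 (1.15 to 16.2). In the normal samples it was 17.3 in CMEC1 (6.96 to 35.7), 11.6 in CMEC2 (0.295 to 64.9) and 17.3 in CMEC3 (6.35 to 37.7). Each normal sample stood above each tumour line, but the intervals of CMT-47 and CMT-119 overlapped theirs. At the floor, the reads allowed a share of up to 3.96 ppm in CMT-27 and 8.54 in CMT-28. In CMT-12 a count of 0 allowed up to 37.0 ppm, more than the share in any normal sample, so a lower level was not detectable at its depth. Of the 193 tested miRNAs, 3.11% were lower in CMT without overlap on this scale. The striated muscle markers (miR-1, miR-206 and miR-133a) were likewise lower in tumour vesicles than in CMEC2 and CMEC3. Their summed share was 433 ppm in CMEC1, 14935 in CMEC2 and 2302 in CMEC3, against 80.4 to 136 in 4 tumour lines and 727 in CMT-119, with 1 to 3 of 3 above the floor. miR-206 was at the floor in CMEC1 and in all tumour lines. Their part in the result was not tested. The difference in log2 share of miR-34a was -2.92 ± 1.20 (SE, 5 against 3 libraries; limma adjusted p = 0.307, with 0% of miRNAs called).

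miR-34c, made from another gene with the same seed, was higher on average in tumour vesicles. Its deposited value was 23.6 in CMT-47, 8.89 in CMT-28, 8.06 in CMT-119, 2.32 in CMT-12 and 1.38 in CMT-27. It was 1.09 in CMEC1 and at the floor in CMEC2 and CMEC3. Every tumour line was above every normal sample, a separation that 7.77% of the 193 tested miRNAs also showed in that direction on the deposited scale. The tumour lines split in level: CMT-47, CMT-28 and CMT-119 held 34, 23 and 9 reads, CMT-27 held 2 and CMT-12 held 1. The normal samples together held 1 read, in CMEC1.

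The separation of miR-34c did not hold as a share of the library. It was 32.5 ppm in CMT-47 (interval 22.5 to 45.5), 27.2 in CMT-28 (17.2 to 40.8) and 16.7 in CMT-119 (7.62 to 31.6). These neighbours in the order had overlapping intervals. It was 12.3 in CMT-12 (0.312 to 68.7) and 1.42 in CMT-27 (0.172 to 5.14), against 2.47 in CMEC1 (0.0626 to 13.8). CMT-27, the deepest library, thus lay below CMEC1. A count of 0 allowed up to 8.66 ppm in CMEC3, below the intervals of CMT-47 and CMT-28. In CMEC2 it allowed up to 34.9, more than any tumour line held, so the level of CMEC2 could not be set apart from theirs.

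By limma, miR-34c was 1.80 ± 0.85 higher in CMT on the log2 scale as deposited (SE, 5 against 3 libraries; adjusted p = 0.455, unadjusted p = 0.0495). An unadjusted p under 0.05 was reached by 10.9% of the tested miRNAs, and an adjusted one by 0%. In log2 share the difference was 3.21 ± 1.25 (adjusted p = 0.283). A fit that weights each library by how well it follows its group called miR-34c, at 2.47 ± 0.59 (adjusted p = 0.0115). That fit called 7.77% of all tested miRNAs. It gave CMT-119 a weight of 3.36, CMT-27 0.177, CMT-12 0.47 and CMEC1 0.55. Because miR-34c entered the test through the tumour lines, where it was high, none of its p-values is support for a difference. With pseudocounts of 0.1 and 10 the deposited difference of miR-34c was 2.35 and 0.66, and that of miR-34a was -1.73 and -0.43. After median centring miR-34c was at 0.96 (limma adjusted p = 0.743) and miR-34a at -2.14 (limma adjusted p = 0.377).

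**Figure D2:**
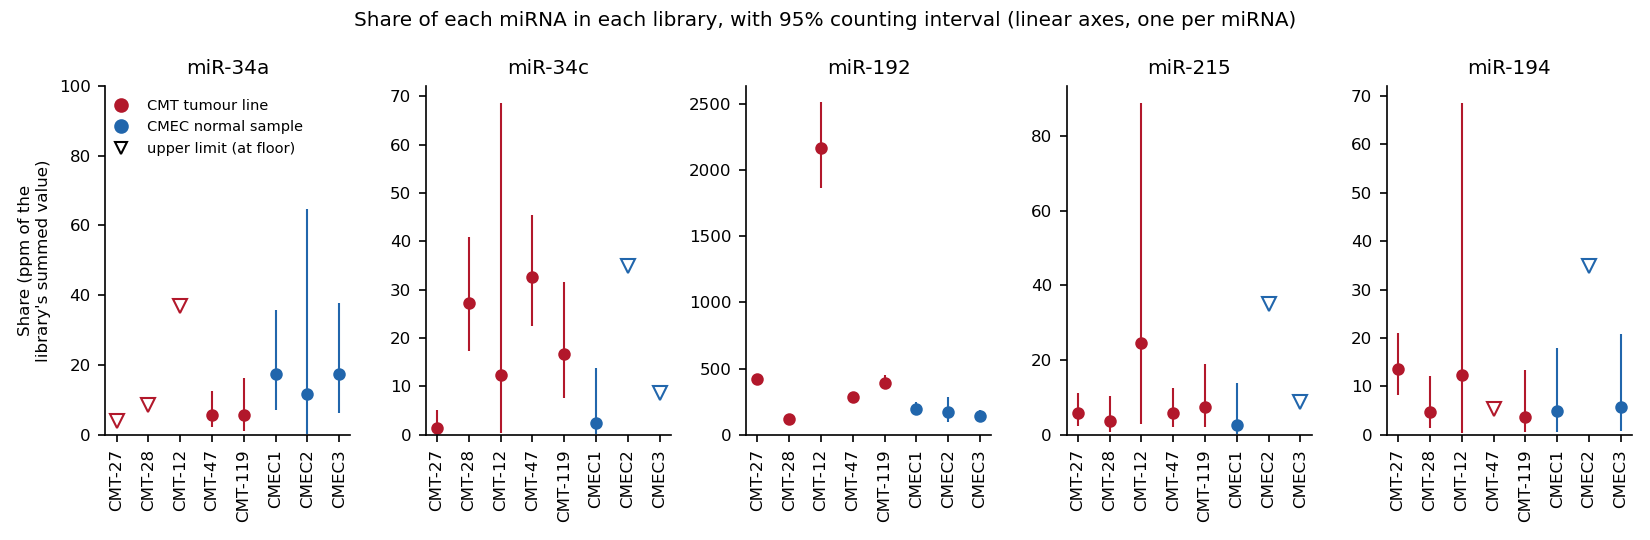
Share of each miRNA in ppm of the summed value of each library (linear axes that differ between panels), with exact 95% counting intervals. Open triangles are upper limits for libraries at the floor. The normal samples have the highest point values of miR-34a, CMT-47 and CMT-28 have the highest of miR-34c, and CMT-12 stands far above the rest in miR-192, at 2169 ppm.

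miR-34a and miR-34c were then set against each other within each library, where library scaling cancels apart from the floor and the pseudocount. Among the reads of this pair, miR-34a made up 87.5% in CMEC1 (7 of 8 reads, interval 47.3% to 99.7%), 100% in CMEC2 (1 of 1, 2.50% to 100%) and 100% in CMEC3 (6 of 6, 54.1% to 100%). It made up 15.0% in CMT-47 (6 of 40 reads, 5.71% to 29.8%) and 25.0% in CMT-119 (3 of 12, 5.49% to 57.2%). It was at most 8% in CMT-28, where the floor can hide 2 reads beside 23 of miR-34c. In reads, miR-34a was ahead in the 3 normal samples and miR-34c in the 5 tumour lines. Counting error alone leaves the order unsettled in CMEC1, CMEC2, CMT-119 and CMT-12, whose intervals include equal shares of both. That of CMT-12 ran from 0% to 97.5% (0 of 1 read). The order is unsettled in CMT-27 too, where the floor can hide 1 read of miR-34a beside 2 of miR-34c. CMEC2 rests on 1 read of miR-34a, and CMT-27 and CMT-12 rest on 2 reads and 1 read of miR-34c with no read of miR-34a above the floor.

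The difference log2(miR-34a + 1) minus log2(miR-34c + 1) averaged -1.37 ± 0.91 over the tumour lines (SD, n = 5) and 1.73 ± 0.69 over the normal samples (SD, n = 3). It ran from -2.31 (CMT-28) to -0.25 (CMT-27) in the tumour lines and from 0.94 (CMEC2) to 2.22 (CMEC3) in the normal samples, without overlap. The means differed by -3.10, against a pooled SD between libraries of 0.845. This ratio was not tested, since the pair was singled out with its values known. Its separation and size are descriptions, and how often other pairs of miRNAs separate the groups was not analysed. In the 5 libraries with at least 6 reads of the pair, CMT-28, CMT-47, CMT-119, CMEC1 and CMEC3, the means differed by -4.08.

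**Figure D3:**
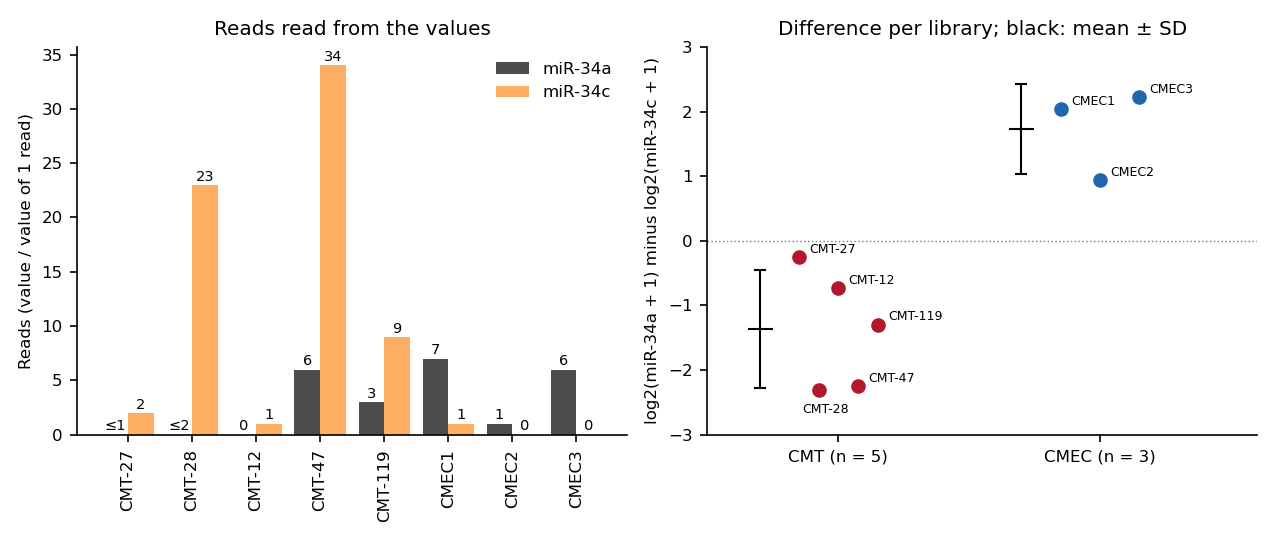
Left, reads of miR-34a and miR-34c in each library, taken as the deposited value divided by the worth of 1 read (≤ marks reads that the floor can hide). Right, the log2 difference between the pair per library, with mean ± SD in black. All 5 tumour lines lie below 0 and all 3 normal samples above it, and CMT-27, CMT-12 and CMEC2 rest on 1 or 2 reads.

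The other miRNAs of the miR-34 seed family gave little signal. miR-34b, which is made from the same transcript as miR-34c in human and mouse, was at the floor in all 8 libraries, also in CMT-47 with its 34 reads of miR-34c. miR-449a, known from ciliated cells, was above the floor only in CMT-27, at 2.08. miR-449b was at the floor in all 8 libraries, and miR-449c was not among the miRNAs of the deposited table.

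miR-192 was higher in 4 of the 5 tumour lines than in any normal sample. Its deposited value was 408 in both CMT-12 and CMT-27, 209 in CMT-47, 191 in CMT-119 and 38.2 in CMT-28. It was 85.9 in CMEC1, 42.5 in CMEC2 and 67.9 in CMEC3. CMT-28 was the exception, below each normal sample. The log2 difference was 1.59 ± 1.10 (SE, 5 against 3 libraries; limma adjusted p = 0.537). After median centring it was 0.76 and after quantile normalisation 0.71.

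By share, CMT-12 stood apart for miR-192. It held 2169 ppm (interval 1861 to 2514), although its deposited value was that of CMT-27, which held 420 ppm (386 to 455). CMT-119, at 394 (343 to 451), did not differ from CMT-27 beyond its counting interval. CMT-47 followed at 288 (256 to 323), and its interval met that of CMEC2 (97.7 to 288, around 175). CMEC1 at 195 (155 to 244), CMEC3 at 141 (105 to 187) and CMT-28 at 117 (95.1 to 142) closed the order. Neighbours from CMEC1 down to CMT-28 had overlapping intervals.

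miR-122, the defining liver miRNA, was given beside miR-192 because both are abundant in liver. It stood at 97574 ppm in CMT-12, 2773 in CMT-119, 2350 in CMT-47, 127 in CMT-27 and 9.46 in CMT-28. In the normal samples it was 14.8 in CMEC1, 23.3 in CMEC2 and 335 in CMEC3. CMT-12 was thus the highest library for both miRNAs and CMT-28 the lowest for both, while CMT-27 came next for miR-192 but held less miR-122 than CMT-119, CMT-47 and CMEC3. The epithelial markers (miR-200a, miR-200b, miR-200c, miR-141, miR-429, miR-203 and miR-205) were also highest in CMT-12 and CMT-27, with 6 of 7 above the floor and a summed share of 21285 and 16769 ppm. In the other tumour lines the sum was 8.61 to 64.8 and in the normal samples 26.0 to 198. The blood markers (miR-451, miR-144 and miR-486) also had their highest summed share in CMT-12, at 1011 ppm with 3 of 3 above the floor, against 10.7 to 59.2 in the other tumour lines and 2.47 to 221 in the normal samples. In the CMEC samples, labelled as epithelial, 1 to 4 of the 7 epithelial markers were above the floor, against 1 in CMT-28 and 3 each in CMT-47 and CMT-119. miR-200b and miR-429 were at the floor in each CMEC sample and in these tumour lines. miR-141 was at the floor in all 8 libraries. The part of these markers in the result was not tested.

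miR-215, which shares the seed of miR-192, was measured at far lower levels. Unlike that of miR-192, its deposited value was above every normal sample in each tumour line, as was that of 7.77% of the 193 tested miRNAs. Its deposited value was 1.16 in CMT-28, 3.58 in CMT-119, 4.16 in CMT-47, 4.64 in CMT-12 and 5.53 in CMT-27, from 2 to 8 reads. It was 1.09 in CMEC1, a single read, and at the floor in CMEC2 and CMEC3. The separation held by share as well, at 3.55 (CMT-28) to 24.6 (CMT-12) ppm against at most 2.47 in CMEC. On that scale 3.11% of tested miRNAs were higher in CMT without overlap. The limit that a count of 0 allows was 8.66 ppm in CMEC3, above all tumour lines but CMT-12, and 34.9 in CMEC2, above all 5. The log2 difference of 1.15 ± 0.62 as deposited did not pass (limma adjusted p = 0.512). In log2 share it was 2.49 ± 1.14 (adjusted p = 0.356), and after median centring 0.32. miR-215 also entered the test through the tumour lines, so these p-values are no support for a difference.

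miR-194, the neighbour of miR-215, gave no direction. Its deposited value was 13.1 in CMT-27, 2.32 in CMT-12, 1.79 in CMT-119 and 1.55 in CMT-28, and at the floor in CMT-47. It was 2.18 in CMEC1, at the floor in CMEC2 and 2.77 in CMEC3. Outside CMT-27, with 19 reads, no library held more than 4 reads, and the groups overlapped. The log2 difference was 0.35 ± 0.72 (SE, 5 against 3 libraries; limma adjusted p = 0.802), and it turned to -0.49 after median centring and to -0.14 without CMT-27.

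By sign, 4 of the 5 miRNAs were higher in CMT as deposited, as were 73.1% of the 193 tested miRNAs, and miR-34a was the exception. The median difference of all tested miRNAs was 0.75 as deposited, -0.09 after median centring and 0.13 after quantile normalisation. Relative to the deposited median, miR-34a stood at -2.05, miR-34c at 1.05, miR-192 at 0.85, miR-215 at 0.41 and miR-194 at -0.40. By unadjusted p, miR-34c was 21st, miR-34a 30th, miR-215 31st, miR-192 58th and miR-194 151st of the 193. Each member was tested because it was above the floor in at least 3 libraries, which for miR-34c and miR-215 were the 5 tumour lines and CMEC1. The tumour lines alone met that rule for both, and the CMEC samples alone met it for miR-34a. The p-values of these miRNAs are therefore no support for a difference. Without CMEC1, 3.37% of the miRNAs then tested were called by limma, none of them a member. The plot of each difference under every setting shows no change of sign for miR-34a, miR-34c, miR-192 and miR-215.

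**Figure D4:**
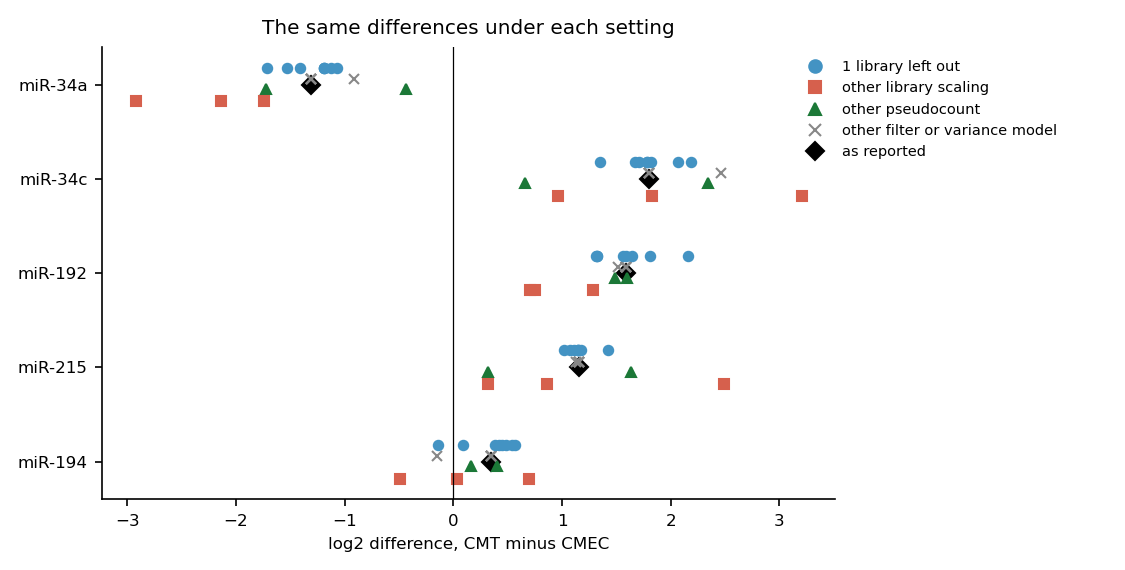
Log2 difference (CMT minus CMEC) of the 5 miRNAs as reported (black) and under each alternative setting. The sign of miR-34a stays negative and those of miR-34c, miR-192 and miR-215 positive, while miR-194 crosses 0, to -0.49 after median centring.

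A list of other miRNAs tied to p53 was read from the same fit. Of its 14 entries, 13 were in the table and 10 were tested. By sign 7 of the 10 were higher and 3 lower in CMT, near the 73.1% of all tested miRNAs, with a median difference of 1.34 against 0.75 over all. None passed the threshold, against 0% of all tested miRNAs, and 1 of 10 had an unadjusted p under 0.05 (10.9% of all). That miRNA was miR-504, which entered the test only through the CMEC samples. After median centring the list had 6 higher and 4 lower, and its median was 0.51, where 47.2% of all tested miRNAs were higher.

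Among miRNAs described as induced by p53 or processed with its help, miR-143 was at -2.52 ± 1.72 and its cluster partner miR-145 at -1.16 ± 1.66. Both are markers of smooth muscle and fibroblasts. The 4 mesenchymal markers (with miR-199 and miR-214) had a summed share of 152 ppm in CMT-27 and 2551 in CMT-12. The sum was 16847 to 185715 in CMEC and 43986 to 139198 in the other tumour lines. It was mostly miR-143 in each library, and miR-199 and miR-214 had another order. The share of miR-199 was 9.25 ppm (CMT-119), 17.2 (CMT-47), 17.8 (CMT-27), 98.6 (CMT-12) and 4944 (CMT-28), against 294 to 6670 in CMEC. At the floor for miR-214 were CMEC1, CMT-119, CMT-27 and CMT-47. It held 12.3 ppm in CMT-12, 15.4 in CMT-28, 107 in CMEC3 and 268 in CMEC2. miR-107, which acts on the cell cycle and on Dicer, was at 2.19 ± 1.33. miR-16 and miR-15a, which repress cyclins and BCL2, were at 1.86 ± 1.20 and 1.58 ± 1.03. miR-200c, which keeps cells epithelial, was at 2.39 ± 2.41 and at 0.47 without CMT-27. All of these differences are log2 CMT minus CMEC with their SE (5 against 3 libraries), and their limma adjusted p lay between 0.537 and 0.769.

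Among miRNAs described to repress p53 itself, miR-504 had the smallest p. It was at the floor in all 5 tumour lines and at 6.53, 5.67 and 27.7 in CMEC1, CMEC2 and CMEC3, that is 6, 2 and 20 reads (limma adjusted p = 0.151). It was tested only through the 3 CMEC samples, so its groups had to differ, and its separation is a description. With the same direction, 1.55% of tested miRNAs did not overlap as deposited and 3.11% by share. The weighted limma fit gave an adjusted p of 0.00250 and called 7.77% of all tested miRNAs. Because miR-504 was tested only through the CMEC samples, neither p-value is support for a difference. In CMT-12 a count of 0 allowed up to 37.0 ppm, more than miR-504 held in CMEC1 (14.8) and CMEC2 (23.3). miR-125b was at 1.20 ± 0.96, miR-30d at 1.49 ± 0.96 and miR-25 at 0.10 ± 1.03 (SE, 5 against 3 libraries). miR-25 turned to -0.74 after median centring.

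**Figure D5:**
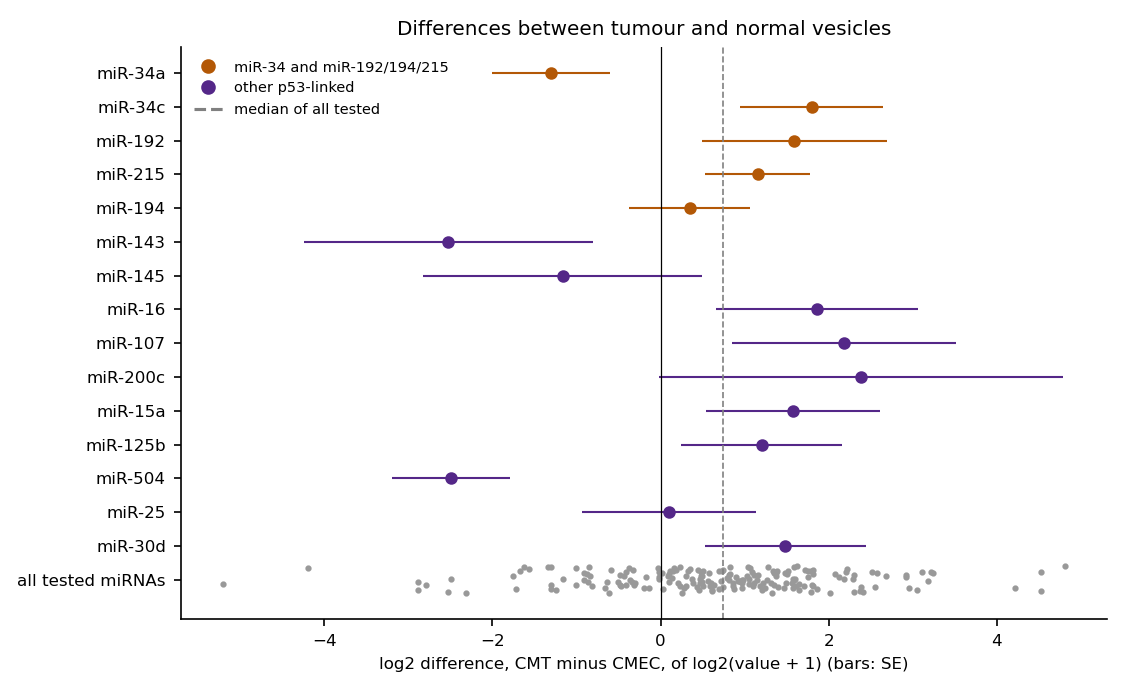
Log2 difference (CMT minus CMEC) with SE for the 5 miRNAs (orange) and the 10 tested miRNAs of the p53-linked list (purple), above the differences of all 193 tested miRNAs (grey). The dashed line is the median of all tested, 0.75. miR-34a, miR-143, miR-145 and miR-504 lie below 0, and the rest lie above it.

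The miRNAs whose share followed that of miR-34a most closely over the 8 libraries were miR-574 (Spearman 0.854, Pearson of log2 shares 0.794), miR-504 (0.811 and 0.785) and miR-133a (0.785 and 0.645). The values of miR-133a are the same as those of miR-133c. For miR-34c they were miR-212 (0.785 and 0.702), miR-22 (0.755 and 0.777) and miR-21 (0.731 and 0.517). miR-34a and miR-34c themselves had a Spearman correlation of -0.405 (Pearson -0.465). miR-192 and miR-215, with the same seed, had 0.779 (0.815), while the neighbours miR-194 and miR-215 had 0.151 (0.428). These are descriptions over 8 libraries of unequal depth, and the members other than miR-192 had 0 to 34 reads in each.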

How the data were processed

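Vesicle RNA (500 ng per library, from 5 mL of medium) was sequenced as single reads of 50 bases, per the labels' protocols. A worm spike-in at 10 pM, named there, was not analysed here. The authors deposited a normalised signal per mature miRNA locus for 511 loci, on canFam3 per the submitters' processing notes. How reads were aligned, counted and normalised is not given in the sources used here.

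For 45 miRNAs listed at several loci, only the one with the highest mean was used, which left 452. Above the floor, 99.0% to 100% of a library's values were multiples of its step (tolerance 0.05 steps), and the depth per library was taken from that step. The 193 miRNAs with a value above the floor in 3 or more of the 8 libraries were tested with limma 3.58.1 (R 4.3.3, eBayes with an intensity trend) on log2(value + 1), CMT minus CMEC, without covariates, with Benjamini-Hochberg adjustment over all of them and a threshold of 0.05. The pseudocount makes differences of low miRNAs look smaller. Shares were taken of the summed value above the floor, in ppm, with values at the floor set to 0 and a pseudocount of 1 ppm in the fit. The fit was tested on simulated data that had no floor, so that test does not cover miRNAs near the floor. Libraries all differed by more than counting noise (lowest chi-square per degree of freedom 92.7, between CMEC2 and CMEC3, and 428 or more for any other pair, a measure that grows with depth). Since separate dogs are not stated, p-values reflect only the spread between these samples.

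The members and lists were chosen with earlier results of these data known. Named were all 5 members, the detected miRNAs of the p53-linked list and the 3 miRNAs most like miR-34a and miR-34c by Spearman correlation of shares. Alternatives covered the pseudocount, filter, scaling, variance model, weights, loci and each library left out.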

Additional observations from a re-analysis of the deposited data

Results flagged for a closer look

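The gap between the outermost tumour line and its nearest neighbour was checked for 21 results over the 5 CMT lines. It was large for 3 of them, and chance gives about 1 in 20 for independent, normally spread values. The results included both shares and log2 values of the same miRNAs, so the number flagged cannot be read against that rate. The share of miR-192 was 2169 ppm in CMT-12, against 420 in the next line, CMT-27. The share of miR-215 was 24.6 ppm in CMT-12, against 7.40 in CMT-119, and rested on 2 reads. The log2 deposited value of miR-194 was 3.82 in CMT-27, against 1.73 in CMT-12.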

How the results depend on the processing

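No paired analysis was possible because the tumour lines carry no replicate number that the CMEC samples share. Of the 193 tested miRNAs 0 passed as reported, at a smallest adjusted p of 0.151, with 21 at an unadjusted p under 0.05. With array weights 15 passed, among them miR-34c, which entered the test through the tumour lines. From the p53-linked list 1 passed (miR-504, tested only through the CMEC samples). With 1 library left out 0 to 6 passed, the 6 without CMEC1, and none of these was a member or on the list. miR-504 could not be among them, since it fails the filter on low values once any CMEC sample is left out. The members' limma adjusted p then lay at 0.259 or more. The difference of miR-34a and miR-34c between the groups was -4.07 with a pseudocount of 0.1, -1.09 with one of 10 and -4.08 in libraries with at least 6 reads of the pair, a choice made after seeing the data, and it ran from -3.50 to -2.86 with 1 library left out. miR-194 turned to -0.49 after median centring and -0.15 with array weights, and ran from -0.14 to 0.57 with 1 library left out. miR-25 turned to -0.74, -0.80, -0.21 and -0.63 after median centring, quantile normalisation, scaling to shares and array weights, and ran from -0.45 to 0.59 with 1 library left out (-0.40 without CMEC1). With array weights miR-145 turned to 0.58 and miR-200c to -0.73. The cause was not tested. When only miRNAs detected in all 8 libraries were tested, miR-192 was the only member left. edgeR and DESeq2 were not run, since the deposited values are normalised and the floor hides reads in some libraries. It can hide 2 reads in CMT-28 and 1 in CMT-27, CMT-47 and CMT-119. Depth limits CMT-12 and CMEC2 most, where 3 reads are 37.0 and 34.9 ppm.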
